A study of Mus musculus with 4 samples.

Results

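In mouse yolk sac erythro-myeloid progenitors (EMPs), 284 narrow H3K27me3 peaks lay at or just beyond the 3′ end of a gene. They were taken from the 15282 peaks of the library made from 15000 EMPs. A peak was a member when it lay on chromosomes 1 to 19, was below 2000 bp wide, and was placed by the authors' annotation either across the end of a gene or downstream of it at a distance of at most 3000 bp. Of the 284 peaks, 64 crossed a gene end and 220 lay downstream. They were drawn from 11231 autosomal peaks below 2000 bp, and from 14959 autosomal peaks of any width. The members were thus chosen by position, width and annotation in the 15000-EMP list, and those values are given as a description. Detection with 500 EMPs was not part of it.

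The study profiled H3K27me3 by CUT&RUN, in which an antibody tethers a nuclease to its target and the released DNA is sequenced. Cells were EMPs of the yolk sac at E10.5 (embryonic day), strain C57BL/6, with the genotype field Ezh2fl/fl; Tie2-Cre+/+ Wild type in every library. There was 1 H3K27me3 library of 500 EMPs and 1 of 15000 EMPs, each with an IgG library that served the peak caller as background. Amplification took 17 cycles and reads were 76 bp with 500 EMPs, against 16 cycles and 59 bp with 15000 EMPs, and per the methods a stricter p-value threshold was used for the 500-EMP list. Cell number therefore cannot be told apart from these differences or from sequencing depth. With 1 library per cell number no comparison between them had a replicate check, no test was made, and intervals are 95% Wilson intervals that cover counting error only. The files used here hold peak positions without reads or scores, so a peak is present or absent, and depth cannot be read from them. By the study's reporting summary the 500-EMP libraries were sequenced less deeply and aligned less well, which was not corrected for. Likewise the identity of the cells could not be checked against marker expression.

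H3K27me3 is placed by Polycomb repressive complex 2, of which Ezh2 is a catalytic subunit, and is known for covering the starts and bodies of silent developmental regulators. It often gathers at CpG-rich gene starts and can spread from there across short genes. The distances from the members to gene starts, to other peaks and to CpG-rich sequence are therefore given below.

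Stretches of 5 members are printed to show the DNA that was called with both cell numbers. They come from the 10 widest members that a 500-EMP peak overlapped and that lay over 3 kb from every protein-coding gene start. Among these, the Tubg2, Hmx1 and Marveld3 peaks had the highest ratio of observed to expected CpG, the quantity that marks CpG islands, and the 1700039E22Rik and Gm20052 peaks had the lowest. Each stretch is the central 200 bp of the longest part shared with a 500-EMP peak and outside annotated exons, on the plus strand of GRCm38 (mm10), with CpG in capitals.
Tubg2 (chr11:101163786-101163985): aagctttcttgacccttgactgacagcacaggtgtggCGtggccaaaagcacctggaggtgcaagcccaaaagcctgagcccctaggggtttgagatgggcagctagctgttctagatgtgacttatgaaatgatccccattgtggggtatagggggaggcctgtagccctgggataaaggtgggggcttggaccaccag
Hmx1 (chr5:35400627-35400826): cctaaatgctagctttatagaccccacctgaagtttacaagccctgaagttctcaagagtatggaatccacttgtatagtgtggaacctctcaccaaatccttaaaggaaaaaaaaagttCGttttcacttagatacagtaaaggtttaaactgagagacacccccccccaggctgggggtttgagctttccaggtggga
Marveld3 (chr8:109948770-109948969): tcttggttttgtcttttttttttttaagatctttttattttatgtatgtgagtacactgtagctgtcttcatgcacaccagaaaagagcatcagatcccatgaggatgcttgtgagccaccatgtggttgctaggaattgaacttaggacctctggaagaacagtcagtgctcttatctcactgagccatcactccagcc
1700039E22Rik (chr19:44823825-44824024): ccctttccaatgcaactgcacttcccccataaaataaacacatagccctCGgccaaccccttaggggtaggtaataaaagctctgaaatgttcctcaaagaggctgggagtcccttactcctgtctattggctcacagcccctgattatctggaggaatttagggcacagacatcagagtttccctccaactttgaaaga
Gm20052 (chr5:37899188-37899387): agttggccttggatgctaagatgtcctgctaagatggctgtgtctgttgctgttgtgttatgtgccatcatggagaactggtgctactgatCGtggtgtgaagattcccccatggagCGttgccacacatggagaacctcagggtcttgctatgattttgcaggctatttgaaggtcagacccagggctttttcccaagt

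These stretches held 0 to 2 CpG each. The Tubg2 stretch had a ratio of 0.0678 although the whole Tubg2 peak had 0.544, so most of its CpGs lay elsewhere in the peak. In the Marveld3 stretch, which had 0 CpG, 200 of 200 bases were marked as repeat in the reference. Across the 52 members with at least 100 bp inside and at least 100 bp outside the 500-EMP peaks, the median ratio was 0.240 in the shared part and 0.271 in the rest. The shared part had the higher ratio in 23 of these members and the lower in 29.

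The members had a median width of 555 bp (interquartile range 320 to 1142 bp), against 515 bp for the other autosomal peaks below 2000 bp. The median was 956 bp for members across a gene end and 468.5 bp for downstream members. Downstream members lay at a median of 1376 bp from their gene. Another 15000-EMP peak lay within 3 kb of 250 of the 284 (88.0%, interval 83.7 to 91.3%). The share was 82.2% of all autosomal peaks below 2000 bp and 89.5% of those upstream within 3 kb. For the 279 members with another peak within 200 kb, the nearest was at a median of 385 bp. The median gap was 450 bp for all autosomal peaks below 2000 bp and 384 bp for those upstream within 3 kb. The smallest gap of a member was 238 bp, which was also the smallest gap anywhere in the list. A peak wider than 5 kb stood within 3 kb of 49 members (17.3%). When peaks within 3 kb were joined, the run that held a member had a median width of 5525 bp and a median of 3 peaks. The share beside a peak wider than 5 kb and the run values were not computed for other narrow peaks. They describe the members without a background.

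**Figure D1:**
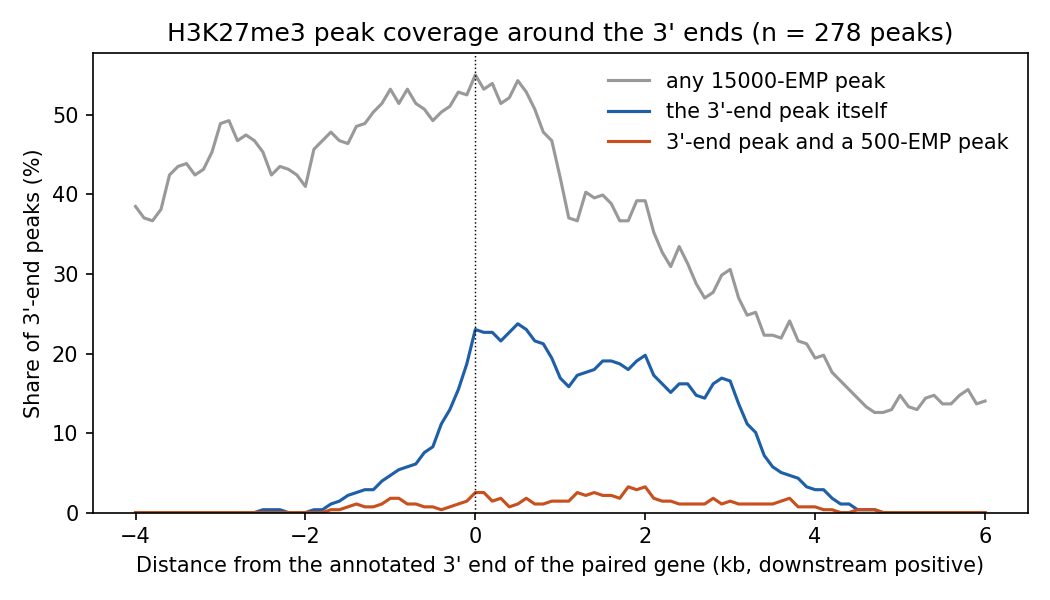
Share of 278 3′-end peaks, in percent, that cover each distance (kb) from the annotated end of the paired gene, for the peak itself, for the peak together with a 500-EMP peak, and for any 15000-EMP peak. The peaks themselves are centred on and downstream of the end by the rule (23.0% at the end), whereas any 15000-EMP peak covers 55.04% at the end and 38.5% at 4 kb before it, which in short genes lies upstream of the gene.

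In all, 230 genes were paired with a member, 42 of them with 2 members and 6 with 3. Of the members, 278 could be matched to GENCODE genes, 210 at 178 protein-coding genes, 32 at 22 miRNA genes and 19 at long intergenic RNA genes. The protein-coding genes had a median length of 4712 bp (interquartile range 2472 to 10590 bp), against 17629 bp for all 20807 autosomal protein-coding genes. Of the 178, 37 (20.8%) had a single exon, against 5.58%. For most members at these genes, the nearest protein-coding start was that of the paired gene. Gene length may thus be partly set by the pairing, which was not tested, and no difference is read from these values. The start of the gene itself, of any kind, lay within 3 kb of 81 of 278 members (29.1%). All 64 members across a gene end overlapped an exon of that gene, 59 overlapped its UTR and 28 its coding sequence. The members lay on all 19 autosomes, with 40 on chromosome 11 and 5 each on chromosomes 9 and 14.

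The gene's own start was marked as well in 130 of 278 cases (46.8%, interval 41.0 to 52.6%), where a 15000-EMP peak crossed it. For members at protein-coding genes this was 103 of 210 (49.0%), counted per member and by the GENCODE start. Counted per gene and by the authors' location category, 8.77% of all autosomal protein-coding genes had a peak across the start. Unit and definition thus differ, and both counts come from the list that gave the members. The start peaks of the 130 members had a median width of 4027 bp and reached 21612 bp at Sim2, a transcription factor gene of the nervous system. Within 3 kb of the gene's start, a peak other than the member was present for 216 of 278 (77.7%). A run of peaks joined at 3 kb extended from the member to the gene's start in 134 (48.2%). The start peak was more frequent for downstream members, 108 of 214 (50.5%), than for members across the end, 22 of 64 (34.4%), and these intervals overlapped.

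The distance to gene starts is partly set by the rule, which left out peaks that were placed only across or upstream of a start. A protein-coding gene start lay within 3 kb of 59 members (20.8%, interval 16.5 to 25.9%), against 34.0% of all autosomal peaks below 2000 bp, and no difference is read from these shares. The share was 94.1% for peaks across a start, 92.7% upstream within 3 kb, 42.3% inside genes, 1.78% downstream beyond 3 kb and 1.18% upstream beyond 3 kb. The start was the gene's own for 47 members and another gene's for 21, with 9 counted under both. Of the 21 other starts, 13 belonged to genes on the strand of the paired gene and 8 to genes on the opposite strand. The start of Myo15b, an unconventional myosin gene, lay under the 1812-bp member assigned to Llgl2, a cell polarity gene. This was the only other start under a member, and 139 bp of that peak were covered with 500 EMPs. The Nanos2 member (1751 bp, 137 bp covered) lay 1009 bp from the start of Mypop, and the Pth2 member (290 bp, 148 bp covered) lay 2676 bp from that of Gfy. Counting starts of genes of every kind, 115 members (40.5%) had a start within 3 kb. The 225 members that lay over 3 kb from every protein-coding start, whatever other genes were near, are called isolated here.

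Recovery with 500 EMPs was the main independent readout. A 500-EMP peak overlapped 68 of the 284 members by at least 1 bp (23.9%, interval 19.3 to 29.2%), against 16.0% of all autosomal peaks below 2000 bp and 15.8% (15.1 to 16.5%) of those that were no members. Among the other locations, the share was 26.9% for peaks across a gene start, 18.6% for peaks upstream within 3 kb, 15.9% inside genes, 14.0% further upstream and 12.6% further downstream. In bases, 10.9% of the length of the members was covered with 500 EMPs, against 7.45% for the other peaks. Width moved with recovery. Recovered members had a median width of 1185 bp and the others 467 bp.

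Within width classes the members lay above the other narrow peaks, with overlapping intervals except in the narrowest class. From 171 to 349 bp, 12.3% of members were recovered (interval 6.85 to 21.3%) against 4.33% of the other peaks. From 350 to 599 bp the shares were 8.70% and 7.91%, and from 600 to 999 bp 25.0% and 16.8%. From 1000 to 1999 bp, 46.5% of members (36.3 to 57.0%) and 38.4% of the others were recovered. In these classes, from narrow to wide, the shares for peaks across a gene start were 2.27%, 5.75%, 23.9% and 36.8%. Their intervals overlapped those of the members, and their median width was 1147.5 bp. The intervals treat peaks as independent, although neighbouring peaks may share a domain.

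**Figure D2:**
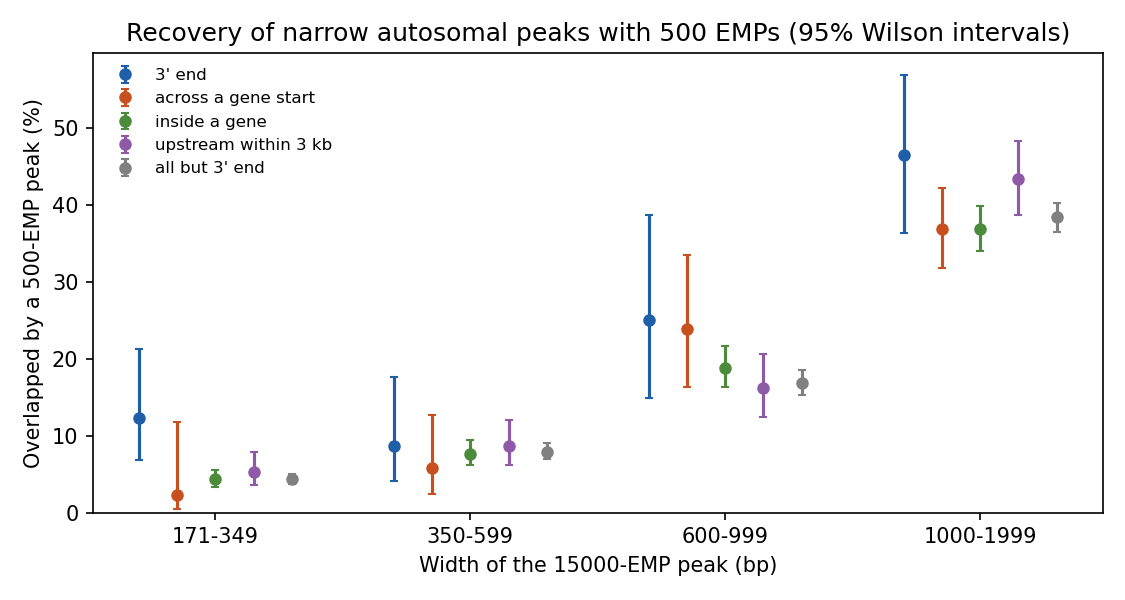
Share of autosomal 15000-EMP peaks, in percent, overlapped by a 500-EMP peak, by peak width (bp) and location, with 95% Wilson intervals. Members (3′ end) stand at 12.3% in the narrowest class, 8.70% from 350 to 599 bp and 46.5% in the widest class. All other peaks stand at 4.33%, 7.91% and 38.4%.

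Where the gene's start also carried a peak, recovery was higher. It was 44 of 130 (33.8%, interval 26.3 to 42.3%) with a peak across the own start and 23 of 148 (15.5%, 10.6 to 22.2%) without, at median member widths of 571 and 585.5 bp. The same order held below 1000 bp, with 22.7% and 6.73%, and from 1000 bp, with 57.1% (42.2 to 70.9%) and 36.4% (23.8 to 51.1%), where the intervals overlapped. Members beside a peak wider than 5 kb were recovered in 17 of 49 cases (34.7%) and the others in 51 of 235 (21.7%), with overlapping intervals. Of the 34 members with no other peak within 3 kb, 2 were recovered (5.88%, interval 1.63 to 19.1%), at Gp5, a platelet glycoprotein gene, and Psd2. By distance to a protein-coding start, 55 of 225 isolated members (24.4%) and 13 of 59 others (22.0%) were recovered.

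Recovery was mostly partial. The 68 recovered members had 1 or 2 500-EMP peaks each, which covered a median of 279 bp (range 22 to 1084 bp) or 27.8% of the member. In all, 78 peaks of the 500-EMP list lay over members, with a median width of 314 bp. Of these, 47 lay wholly inside a member, and 75 were paired by the authors with the same gene. The other 3 were the peaks over the Tubg2 member and the peak over the Nanos2 member, assigned to Cntnap1 and Mypop. The member at Lbx1, a homeobox gene of muscle precursors, was covered along all of its 684 bp, and a 359-bp member at Tpbgl was likewise covered in full. When the same rule was applied to the 500-EMP table it gave 455 peaks at 292 genes, of which 85 were among the 230. Those 85 were 37.0% of the genes found with 15000 EMPs and 29.1% of those found with 500 EMPs. Of the 455 peaks, 58 lay over a member and 383 lay over a 15000-EMP peak of 2000 bp or more, outside the width limit used here.

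The isolated and recovered members included the widest of all. Tubg2, a gamma-tubulin gene, had a 1999-bp peak 1377 bp beyond its end, of which 557 bp were covered with 500 EMPs. The authors' table for 500 EMPs assigned both covering peaks to Cntnap1, a gene of axon-glia junctions whose start lay 5361 bp from the member, as upstream peaks. At Hmx1, a homeobox gene of the developing face and ear, the peak was 1935 bp wide at 146 bp from the end and had 1084 bp covered by 2 peaks of the 500-EMP list, the greatest covered length among members. A peak of 17494 bp covered the Hmx1 start, which it shared with the neighbouring long RNA gene E130018O15Rik. Isl1, a LIM homeobox gene of motor neurons and heart progenitors, had 1904 bp with 674 bp shared. No peak crossed the Isl1 start, but a peak lay within 3 kb of it. The 1877-bp peak beyond Pimreg, a mitosis-related gene, shared 1034 bp. Gm20052 shared 455 of 1936 bp, 1700039E22Rik shared 437 of 1909 bp, and Psd2, which encodes an exchange factor of Arf proteins, shared 415 of 1914 bp. Tex37 shared 303 of 1865 bp, Zdhhc22 shared 137 of 1864 bp and Marveld3, a tight junction gene, shared 554 of 1842 bp. More than 50% of the peak was covered at Hmx1 (56.0%) and Pimreg (55.1%) and less at the other 8.

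**Figure D3:**
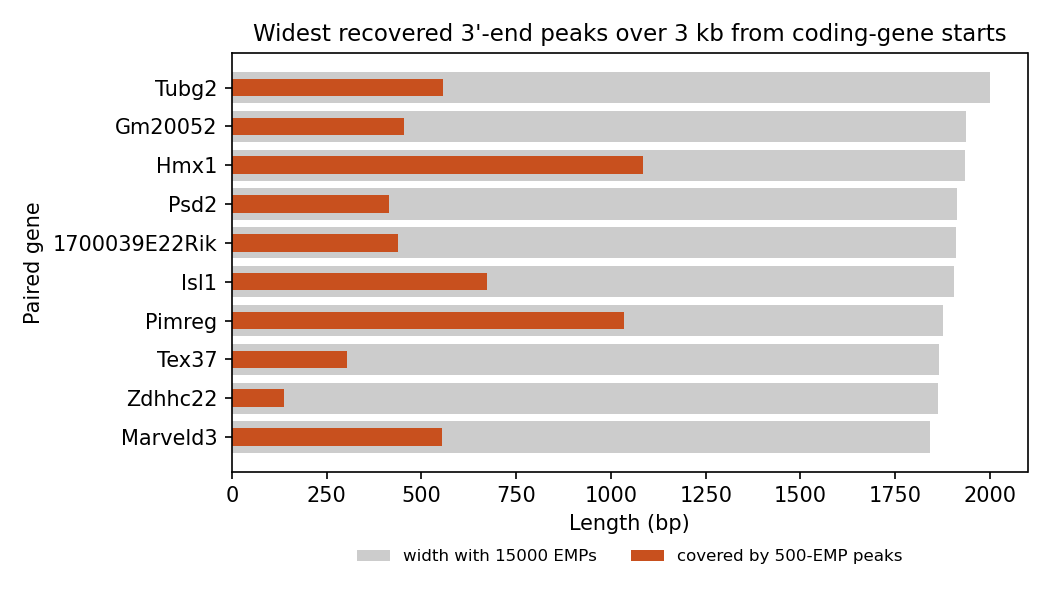
Width in bp of the 10 widest recovered members over 3 kb from every protein-coding gene start, with 15000 EMPs (grey) and the length covered by 500-EMP peaks (orange, drawn from 0 and not at its place in the peak). The covered length runs from 137 bp at Zdhhc22 to 1084 bp at Hmx1.

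Other wide members had no 500-EMP peak. The 1991-bp member at Amh, the anti-Müllerian hormone gene, had 0 bp covered. So had the members at Epop, a gene for a partner protein of Polycomb repressive complex 2, which measured 1958 and 1181 bp, and the 1925-bp member at the cytokine gene Il17b. At the width limit, Tubg2 (1999 bp) and Amh (1991 bp) were just inside, and peaks at Uncx (2024 bp) and Begain (2033 bp) just outside. At the distance limit, Htr3a (2997 bp) and Dlx3 (2994 bp) were just inside, and Slc4a3 (3001 bp) and Dmrt2 (3004 bp) just outside.

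Several lists of developmental transcription factor genes had members, in differing shares. Over all autosomal protein-coding genes, 0.855% had a member. Of 39 Hox genes, 3 had a member, Hoxb1, Hoxb5 and Hoxd1. Of 131 other homeobox genes, 16 had one (12.2%, interval 7.66 to 18.9%), and 100 of these 131 had a peak across the start. Further genes with a member were 2 of 29 forkhead genes (Foxf1 and Foxl1), 1 of 18 Sox genes (Sox9) and 3 of 15 T-box genes (Tbx2, Tbx21 and Tbx4). So were 6 of 55 developmental bHLH genes. A list made for developmental zinc finger genes also held Tfap2c, an AP-2 gene without zinc fingers. Of its 65 genes only Tfap2c had a member, which is 1.54% (0.272 to 8.21%) and near the overall share. Peaks across the start were likewise at 30 of the Hox, 17 of the forkhead, 8 of the Sox, 12 of the T-box and 38 of the bHLH genes. They were at 34 genes of the zinc finger list, against 8.77% of all autosomal protein-coding genes.

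The 36 members at these transcription factor genes were recovered in 15 cases (41.7%, interval 27.1 to 57.8%), against 16.0% of all narrow autosomal peaks and 51 of 233 members outside the lists (21.9%, 17.1 to 27.6%), whose interval overlapped. Of the 36, 29 had a peak across the gene's start. Gsx2, a homeobox gene of the forebrain, had a 1095-bp member with 733 bp covered beside a start peak of 8625 bp. Otx1 shared 624 of 1175 bp and Barhl1, a homeobox gene of hindbrain and ear, shared 716 of 1828 bp. En1, which patterns the midbrain, shared 323 of 938 bp beside a start peak of 17074 bp. Foxf1, a gene of lung and gut mesenchyme, shared 286 of 729 bp. Both members at Irx1 were recovered, with 160 of 577 and 226 of 554 bp. In contrast the 1424-bp Hoxb5, 1658-bp Hoxd1 and 1565-bp Twist1 members had 0 bp covered. Pitx1, a hindlimb gene, had 22 bp covered, the least among recovered members.

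Genes of signalling pathways held 9 members. Wnt8b and Wnt9a were the 2 of 19 Wnt ligands with a member, and Fzd10, a Wnt receptor, was 1 of 51 further Wnt pathway genes. Amh and Nog, a secreted BMP antagonist, were 2 of 37 BMP and TGF-beta genes, Fgf8 was 1 of 20 FGF ligands, and Gas1 and Ihh were 2 of 13 hedgehog genes. Of the 9 members at these genes 1 was recovered (11.1%), a 344-bp peak at the ligand gene Ihh with 79 bp covered. The interval of this share, 1.99 to 43.5%, held the 16.0% of all narrow autosomal peaks and overlapped that of the transcription factor genes. The 1868-bp Fgf8 member and the 1895-bp member at Gas1, a hedgehog co-receptor, had 0 bp covered. Of 186 potassium and neurotransmitter channel genes 6 had a member, and 1 of these 6 peaks was recovered, at Kcna1 with 68 of 229 bp. No member lay at any of 16 Notch, 58 axon guidance, 45 endothelial, 39 hematopoietic, 20 housekeeping, 36 collagen or 66 protocadherin genes, where the overall share of 0.855% would give under 1 gene in each list. Peaks across the start were found at 5 of the Notch, 19 of the guidance, 13 of the endothelial, 1 of the hematopoietic, 0 of the housekeeping, 17 of the collagen and 12 of the protocadherin genes, against 8.77% of all autosomal protein-coding genes.

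Among miRNA genes, 5 of 32 members were recovered (15.6%, interval 6.86 to 31.8%), about the 16.0% of all narrow autosomal peaks. The coordinates of a miRNA gene are those of its hairpin, so its start and end lie close together, and a downstream peak here means a peak beyond the hairpin. The greatest covered lengths were 843 of 1765 bp at Mir9-2, in 2 pieces of 690 and 153 bp, then 707 of 1537 bp at Mir135b and 551 of 1802 bp at Mir137, each in 1 piece. Mir9-2 and Mir137 are known for roles in neural differentiation. The start of the Mir9-2 hairpin lay under a 16743-bp peak. The mature arms of these 3 genes that RefSeq lists for GRCm38.p6 are given 5′ to 3′ as they would be transcribed, on the plus strand, with the seed (bases 2 to 8) in capitals. The arms lie outside the members, and the coordinates, not the sequences alone, identify the genes.
Mir9-2, miR-9-5p (chr13:83738821-83738843): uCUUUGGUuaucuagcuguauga
Mir9-2, miR-9-3p (chr13:83738858-83738879): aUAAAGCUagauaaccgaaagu
Mir135b, miR-135b-3p (chr1:132198142-132198163): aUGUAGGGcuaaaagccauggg
Mir137, miR-137-5p (chr3:118433865-118433887): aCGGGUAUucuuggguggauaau
Mir137, miR-137-3p (chr3:118433901-118433923): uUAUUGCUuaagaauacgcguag

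No seed was shared among these arms. The remaining recovered miRNA members, at Mir6402 and Mir6405, shared 456 of 1297 and 298 of 1120 bp. Mir203, a miRNA gene of the skin, had 3 members of 1130, 885 and 171 bp, and Mir1188, in the imprinted Dlk1-Dio3 region, had 3 of 242, 411 and 804 bp. All 6 had 0 bp covered. The other genes with 3 members were Tpbgl, Ccdc177, E130018O15Rik and Bloodlinc. At Tpbgl 359 and 549 bp were covered in 2 of the 3 members, at Ccdc177 137 bp in 1 and at E130018O15Rik 500 bp in 1. Bloodlinc, an erythroid long RNA gene, had members of 512, 279 and 540 bp and 0 bp covered.

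Some other genes were picked out after their values had been seen. The hematopoietic list held 0 genes with a member, but outside it members lay at Gp5 (186 of 1801 bp covered), Cd40 (235 of 1407 bp), Cd14 (0 of 430 and 51 of 695 bp), Cd3e (0 of 893 bp), the chemokine gene Cxcl12 (0 of 359 bp) and the globin-like gene Hbq1b (0 of 946 bp). They also lay at adrenergic receptor genes, with 0 bp covered in the single members at Adra2a (1343 bp), Adra2b (186 bp) and Adrb1 (286 bp). In 2 families of closely similar copies, reads may not have been assigned to a single locus, and no filter on uniquely mapped reads is stated for CUT&RUN. Of 7 members at H2 class I genes 1 was recovered, at H2-Q1 with 916 of 1496 bp, and of 7 at the interferon gene Ifnz and its neighbours named Gm13275, Gm13276 and the like 3 were recovered. The intervals of these shares, 2.57 to 51.3% and 15.8 to 75.0%, both held the 16.0% of all narrow autosomal peaks.

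In CpG content the members were near the other narrow autosomal peaks. The median ratio of observed to expected CpG was 0.246 for members (interquartile range 0.131 to 0.380) and 0.242 for the other narrow peaks. It was 0.473 for narrow peaks across a gene start. The ratio was 0.329 across gene ends and 0.215 downstream, and it was 0.380 within 3 kb of a protein-coding start and 0.215 for isolated members. The CpG island criteria were at least 200 bp, GC of at least 50% and a ratio of at least 0.6. They were met by 10 of the 284 (3.52%, interval 1.92 to 6.36%), near the 4.61% of all narrow autosomal peaks. These 10 lay at 1700020L24Rik, Cdk3, Fam229a, Llgl2, Mir8110, Pth2, Rasl10a, Rprm, Snorc and Uncx. The highest of all ratios was 0.879 at Pth2. Recovered members had a median ratio of 0.291 and the others 0.232, with wide overlap. Members whose gene had a peak across its start had 0.209 and those without had 0.293.

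**Figure D4:**
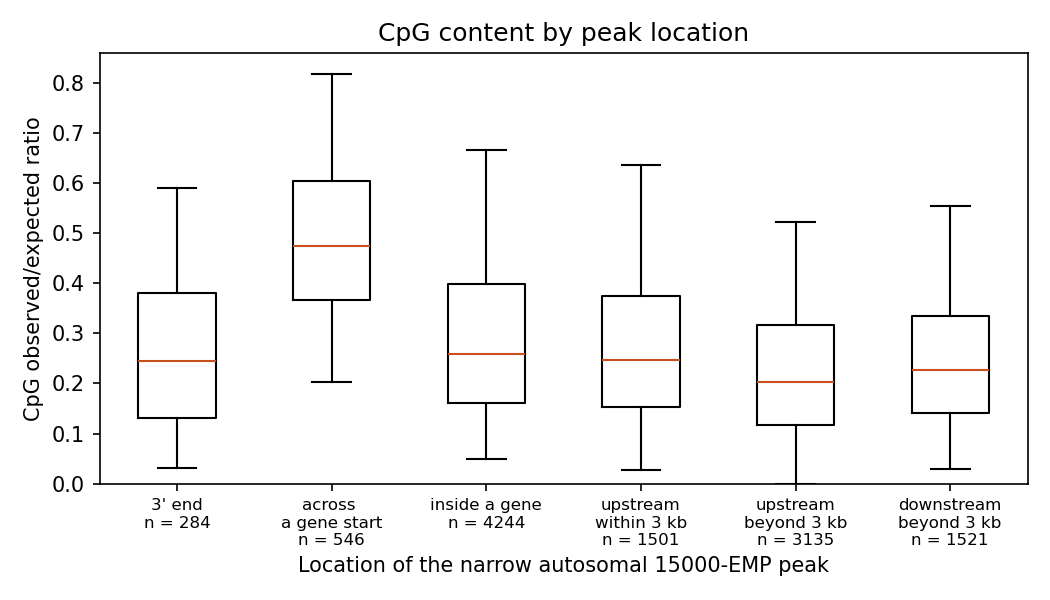
Ratio of observed to expected CpG of narrow autosomal 15000-EMP peaks by location, with the median (line), quartiles (box) and 5th to 95th percentiles (whiskers). The 3′-end peaks have a median of 0.246, near the medians inside genes (0.259) and upstream within 3 kb (0.246), and peaks across a gene start stand at 0.473.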

How the data were processed

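The deposited files used here give, for each H3K27me3 library, the positions of the peaks and the authors' assignment of peaks to genes. The assignment holds location class and distance, and these files have no score, ratio or read count. Per the study's methods and the submitters' processing notes, the authors aligned reads to mm10 with Bowtie2 2.2.1, used SAMtools 1.9 and deepTools 3.5.1, called broad peaks per library with MACS2 2.1.2 at library-specific p-value thresholds, and annotated them with ChIPpeakAnno. In the authors' command listing the input files of the 500 and 15000 calls appear exchanged, and the lists were taken as labelled.

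Groups came from the labels. Members were selected with Python 3.11.15, pandas 2.3.3 and numpy 2.4.6, and a peak listed in several rows was counted once. Table ends lay 1 bp above those of the peak lists, and the list ends were used. Genes, starts and exons came from GENCODE M21 and sequence was read with pysam 0.24.0 from the RefSeq assembly of the same build. The overlap minimum was 1 bp. The functions were checked on simulated data.

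Members and gene lists were chosen with earlier results of these data known. Genes were named by list membership, by width (10 widest), by the greatest length covered with 500 EMPs (5), by the 10 widest isolated recovered members, by having 3 members and by nearness to the limits. Genes named beside neighbouring starts, CpG islands, gaps without peaks, full coverage and miRNA genes, and those marked in the text, were picked out after their values had been seen. The alternatives concerned the distance, width, chromosomes, category, gene type, overlap, start definition and joining. IgG libraries were not analysed here.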

Additional observations from a re-analysis of the deposited data

Results flagged for a closer look

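Chromosome X was outside the autosomal rule, and 9 of its 15000-EMP peaks met the remaining criteria. They are given because no comparison above used them, and no background list was set beside them. They lay at B630019K06Rik, Gm715, Sox3, Pou3f4, Esx1, Kcne1l (2 peaks) and Gpr143 (2 peaks), and were 235 to 1285 bp wide. A 500-EMP peak overlapped 0 of the 9, and a peak across the start of the paired gene was present for 1, at Pou3f4, a POU-domain gene of neural tissue.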

How the results depend on the processing

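Of 70 alternatives over 6 values, 46 stayed within 1.5 times the number of members or within the 95% interval of the value, and 24 moved further. The number of members, 284, became 146 with a downstream limit of 1000 bp, 534 without a width limit and 64 for peaks across the end alone. The recovered share, 23.9%, became 14.1% below 1000 bp, 55.4% without a width limit, 5.28% where at least 50% of the member had to be covered and 37.0% where a 500-EMP peak within 1000 bp sufficed. The share near a protein-coding start, 20.8%, became 35.6% with the 1000-bp downstream limit, 16.0% with 5000 bp, 35.2% without a width limit, 45.3% across the end alone and 13.6% downstream alone. It became 4.93% and 37.7% with start limits of 1 and 5 kb, 40.5% with the starts of all genes and 26.4% with those of all transcripts of protein-coding genes. The share with a peak across the own start, 46.8%, became 34.4% across the end alone and 77.7% for a peak within 3 kb of the start. The share with another peak within 3 kb, 88.0%, became 78.1% across the end alone and 77.8% with a limit of 1 kb. The median CpG ratio, 0.246, became 0.293 with the 1000-bp downstream limit, 0.331 without a width limit, 0.329 across the end alone and 0.215 downstream alone. The cause of these shifts was not tested. No paired analysis was possible because each cell number had 1 library. The files used here hold no depth, and the reporting summary gives a lower one for 500 EMPs. A member without a 500-EMP peak was thus not detected at that depth and threshold, which does not show that the mark was absent.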
